A study of Mus musculus with 8 samples.

Results

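Tudor domain proteins of germ granules are encoded here by 10 genes, Tdrd1, Tdrd3, Tdrd5, Tdrd6, Tdrd7, Tdrd9, Tdrd12, Tdrkh, Stk31 and Snd1, chosen by name for their Tudor domains. All 10 were found by symbol among the 21950 genes of the count table. Polyadenylated RNA was compared by bulk RNA-seq between d6PGCLCs, primordial germ cell-like cells made in culture, and female PGCs of the E12.5 gonad, with 4 pools of cells per group from independent experiments. The d6PGCLCs came from 1 female mouse iPSC line (BVSC-iPSC), derived from tail tip fibroblasts of an adult, that carries Blimp1-Venus and Stella-ECFP reporter transgenes, were collected at day 8 of the culture and were sorted as positive for both reporters. The PGCs came from gonads of inbred C57BL/6J fetuses and were sorted as positive for SSEA1 and integrin β3. The line was kept without feeders in LIF and small-molecule kinase inhibitors, and d6PGCLCs were induced with BMP4, SCF, LIF and EGF, whereas the PGCs were taken from the fetus without culture. No gene deletion is given for either group. The cell line, its genetic background, the sort and the developmental age differ together between the groups, so that their parts cannot be told apart, and a single line stands for all d6PGCLCs.

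Tudor domains are small folds that bind methylated arginine or lysine. In germ cells, extended Tudor domains hold the dimethylated arginines of PIWI proteins, and so gather the enzymes that make and load piRNAs, the small RNAs that silence transposons, into cytoplasmic granules (nuage) beside the RNA helicase DDX4. In the mouse most of these proteins are known from the fetal and adult testis, and several are first switched on in both sexes when PGCs colonise the gonad. TDRD3 and SND1 differ from the rest in that nearly every cell type makes them.

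Read totals ran from 8054596 to 12024841 counts in d6PGCLCs and from 7991437 to 11166023 counts in PGCs. Markers of PGC identity summed to 3957 to 4684 CPM (counts scaled to the library's size) in d6PGCLCs and to 3043 to 3338 CPM in PGCs, with all 10 of them above 3 counts in a library of each group. Of these, Dnd1 (276 against 427 CPM on average), Itgb3 (194 against 328 CPM), Fut4 (0.862 against 9.96 CPM) and Nanos3 (19.2 against 22.9 CPM) had lower means in d6PGCLCs, and the other 6 had higher means. The d6PGCLCs were sorted on reporters of Dppa3 (Stella, 684 against 389 CPM) and Prdm1 (Blimp1, 439 against 195 CPM). The PGCs were sorted on the protein of Itgb3. Each of these markers was higher in the group sorted on it, so that they are not independent of the sort. Gonadal somatic markers summed to 0.832 to 2.18 CPM in d6PGCLCs, where 9 of 11 had at most 3 counts in every library, and to 4.03 to 10.1 CPM in PGCs, where 2 of 11 did. Of 8 epiblast and germ-layer markers, Dnmt3b (20.1 against 10.7 CPM on average) and Otx2 (3.21 against 2.24 CPM) had higher means in d6PGCLCs, whereas the means of the other 6, from 0.0726 to 1.98 CPM in d6PGCLCs, were higher in PGCs, at 0.831 to 5.69 CPM. By heat-shock, blood or Y-linked transcripts, libraries from 2 PGC pools stood apart. PGC replicate 2 held 152 CPM of the heat-shock gene Hspa1a against at most 20.4 CPM in the other PGC libraries. It also held 61.0 CPM of endothelial and blood markers, against 19.3 to 22.6 CPM there and 19.9 to 36.0 CPM in d6PGCLCs. PGC replicate 4 held 99 counts of Y-linked genes against 0 elsewhere. Hspa1a also differed between the groups, with 0.299 to 0.748 CPM in d6PGCLCs and 4.39 to 152 CPM in PGCs. The median CPM of genes tied to cell dissociation ran the other way except in PGC replicate 2. It was 34.2 to 43.8 in d6PGCLCs and 28.8, 124, 28.3 and 24.5 in PGC replicates 1 to 4. The part of these differences in the results was not tested. The fold changes of the members are therefore also given without both PGC replicates 2 and 4. In pairwise comparisons within groups, d6PGCLC replicate 1 stood farthest from its own group. Its chi-square per degree of freedom was 16.15 to 20.75, against at most 14.18 between PGC libraries. This library was left out only among the omissions of single libraries.

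Of the 10 genes, 6 were lower in d6PGCLCs than in PGCs in edgeR's quasi-likelihood test (p adjusted by Benjamini-Hochberg over all genes, threshold 0.05), and 0 were higher. Over all 21950 genes, 15.4% were lower by this rule and 16.1% were higher. These 21950 genes include 7734 that had at most 3 counts in every library and could hardly pass. The shares of all genes called or not overlapping, here and below, are therefore lower than among detected genes, for which they were not computed. A log2 fold change of -2 or less was reached by Tdrd1, Tdrd7, Tdrd9 and Stk31, a rule met by 3.37% of all genes (3.24% reached 2 or more in the other direction), and was not reached by Tdrd3 and Tdrkh. Tdrd5, Tdrd12 and Snd1 did not pass the test, and Tdrd6 had at most 1 count in any library. The median log2 fold change of the 9 genes with more than 3 counts in a library was -1.25, against -0.01 over the 14216 genes of the table that met this same minimum. The groups did not overlap for the 6 lower genes, a pattern shown in this direction by 14.8% of all genes. The numbers of lower genes, 6 in all and 4 past the fold threshold, were also found without PGC replicates 2 and 4. In bulk RNA, fewer cells with a transcript and less of it per cell cannot be told apart.

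**Figure D1:**
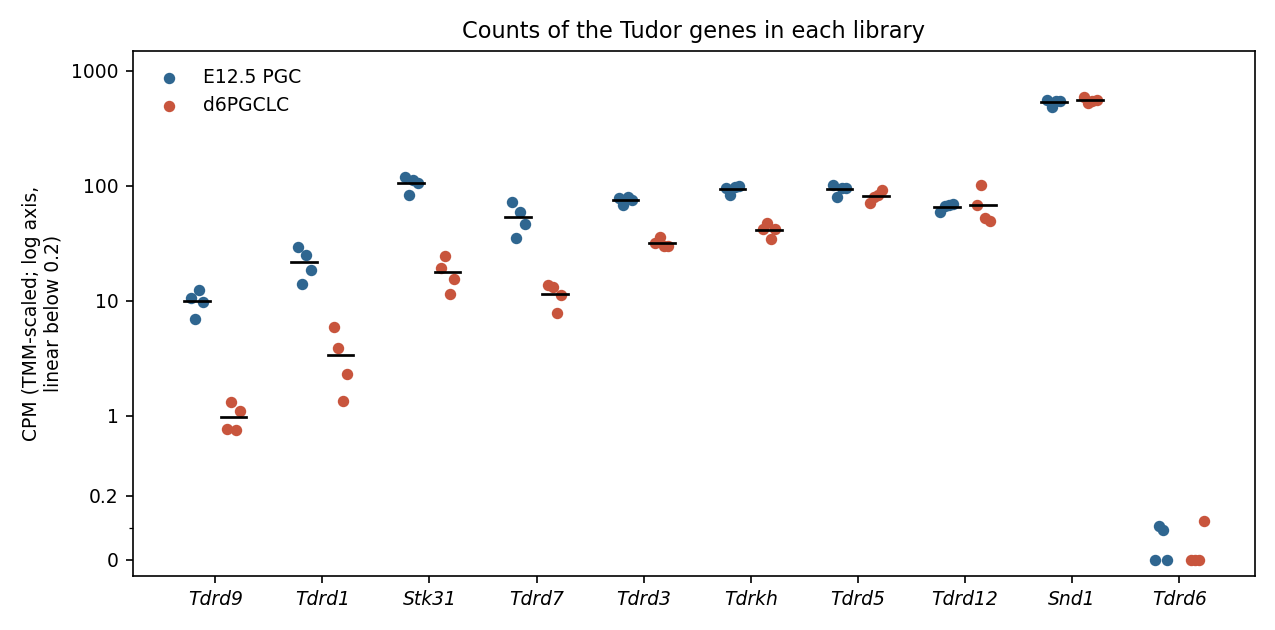
Expression in CPM (TMM-scaled, log axis that is linear below 0.2) of the 10 Tudor genes in 4 d6PGCLC and 4 E12.5 PGC libraries, with 1 point per library in replicate order and a black bar at the group mean where the gene exceeded 3 counts. The groups are apart for the first 6 genes, overlap for Tdrd5, Tdrd12 and Snd1, and lie at 0 or 1 count for Tdrd6.

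To show the sequence upstream of the genes with the widest gaps, promoters were read from RefSeq windows (GRCm38.p6), which 9 of the 10 genes have, Tdrd6 being the one that lacks an entry. The word CACGTG, the E-box bound by MYC-type and MGA/MAX dimers, was searched in the 250 bases before each annotated start. It reads the same on both strands. It occurred in 3 of the 9 genes, Tdrd1, Tdrd9 and Stk31, all of them past the fold threshold, and in 7.74% of the 16539 genes with a window. Among the 568 genes of the table that were lower past the fold threshold and had a window, the share was 8.80%, so that the word was about as frequent there as in genes at large. Tdrd7, which is also past the threshold, held it in none of its 3 windows. The 3 upstream stretches are printed 5′ to 3′ on the gene's strand with CACGTG in capitals, from chr19:56825959-56826208 (plus strand) for Tdrd1, chr12:111971309-111971558 (plus strand) for Tdrd9, and chr6:49395289-49395538 (plus strand) for Stk31. The word lies 11 bases before the start that follows the printed stretch in Tdrd1, 165 and 95 bases before it in Tdrd9, and 55 bases before it in Stk31. Tdrd1 and Stk31 have further annotated starts, from which the distance is 77 bases for Tdrd1 and 120 bases for Stk31, and the window of the most downstream start of Tdrd1 does not hold the word. The gene spans given below take in all RefSeq transcripts and can begin before these starts, so that the word of Tdrd1 lies inside its gene span.
Tdrd1: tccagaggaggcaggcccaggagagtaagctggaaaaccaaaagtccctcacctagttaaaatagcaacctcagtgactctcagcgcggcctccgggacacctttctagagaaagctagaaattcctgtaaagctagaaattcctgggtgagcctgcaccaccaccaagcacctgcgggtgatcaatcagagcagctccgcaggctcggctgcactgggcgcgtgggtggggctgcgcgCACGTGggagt
Tdrd9: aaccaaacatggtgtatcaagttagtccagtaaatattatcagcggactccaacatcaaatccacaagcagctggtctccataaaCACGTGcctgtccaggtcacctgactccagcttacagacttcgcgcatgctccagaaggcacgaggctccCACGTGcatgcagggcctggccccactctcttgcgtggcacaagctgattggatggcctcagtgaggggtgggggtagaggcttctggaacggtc
Stk31: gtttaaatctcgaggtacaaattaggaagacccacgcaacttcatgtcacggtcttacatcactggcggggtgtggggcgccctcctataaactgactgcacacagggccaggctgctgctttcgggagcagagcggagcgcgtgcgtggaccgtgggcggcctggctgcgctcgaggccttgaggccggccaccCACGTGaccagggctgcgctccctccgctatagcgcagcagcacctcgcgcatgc

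A word of the E2F type, GCGGGA or its reverse complement TCCCGC, was also found in 3 of the 9 genes, but in others, namely Tdrd3, Tdrd5 and Snd1. Its share was 23.7% over the 16539 genes and 26.8% over the 568 lower ones. None of the 9 genes held both words in these 250 bases. The stretch of Tdrd3, chr14:87416333-87416582 on the plus strand, is printed with its 2 copies of TCCCGC in capitals, 205 and 165 bases before the start in the promoter table, though inside the wider gene span, because it is a lower gene that stayed short of the fold threshold and carries this word instead of the E-box. A match of letters describes the sequence and shows neither binding nor control.
Tdrd3: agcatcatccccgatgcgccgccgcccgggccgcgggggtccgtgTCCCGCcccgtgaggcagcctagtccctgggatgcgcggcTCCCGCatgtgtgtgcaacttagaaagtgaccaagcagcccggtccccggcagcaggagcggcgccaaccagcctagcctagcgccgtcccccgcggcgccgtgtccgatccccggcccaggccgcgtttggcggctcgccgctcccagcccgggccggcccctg

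The steepest difference among the members was that of Tdrd9 (chr12:111971488-112068854, plus strand, 36 exons in the longest GENCODE transcript), a DExH-box helicase with a Tudor domain that works with the nuclear PIWI protein PIWIL4. Its CPM were 0.766, 1.32, 0.747 and 1.09 in d6PGCLC replicates 1 to 4, and 10.5, 6.95, 12.4 and 9.84 in PGC replicates 1 to 4. All 4 d6PGCLC libraries lay below the lowest PGC library, and they rested on 6 to 13 counts each. The log2 fold change was -3.32 ± 0.30 (SE, n = 4 per group, edgeR adjusted p = 5.41e-09), or 10.02-fold lower with a 95% interval of 6.49 to 15.5, and it was -3.53 without PGC replicates 2 and 4.

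Tdrd1 (chr19:56826171-56870012, plus strand, 25 exons) encodes a scaffold with several Tudor domains that binds the PIWI protein PIWIL2. Its CPM were 5.87, 3.87, 1.33 and 2.30 in d6PGCLCs and 29.2, 13.996, 24.99 and 18.7 in PGCs. The libraries of each group were widely spread, with a coefficient of variation of 59.4% in d6PGCLCs and 30.9% in PGCs, yet the highest d6PGCLC library stayed under the lowest PGC library. On the log2 scale the fold change was -2.74 ± 0.31 (SE, edgeR adjusted p = 3.48e-07), or 6.67-fold lower (95% interval 4.27 to 10.4), and -3.05 without the 2 PGC libraries. Leaving out each library in turn kept it between -3.13 and -2.44.

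Stk31 (chr6:49395506-49469506, plus strand, 24 exons), which joins a Tudor domain to a kinase-like domain and is made almost only in germ cells, had 19.4, 24.7, 11.5 and 15.5 CPM in d6PGCLCs. In PGCs it had 120.0, 84.0, 112 and 106 CPM. The groups were far apart, and PGC replicate 2 was again the lowest of its group. The log2 fold change was -2.58 ± 0.17 (SE, edgeR adjusted p = 2.00e-10), or 5.96-fold lower (95% interval 4.67 to 7.61), and -2.71 without PGC replicates 2 and 4.

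Tdrkh (chr3:94413243-94434854, plus strand, 14 exons) encodes a protein with KH domains and a Tudor domain that is anchored in the outer mitochondrial membrane and brings PIWI proteins to the piRNA 3′ trimmer PNLDC1. Its CPM were 42.0, 47.1, 34.8 and 42.3 in d6PGCLCs and 96.7, 83.3, 98.4 and 99.7 in PGCs, without overlap. Its log2 fold change was -1.19 ± 0.11 (SE, edgeR adjusted p = 3.25e-08), or 2.28-fold lower (95% interval 1.94 to 2.68), and -1.23 without PGC replicates 2 and 4. Exons of Tdrkh overlap those of Oaz3 on the other strand, which had at most 12 counts in any library, against 329 counts or more for Tdrkh. Whether the counting used the strand is not stated in the sources used here.

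Tdrd12 (chr7:35466941-35537784, minus strand, 30 exons), like Tdrd9, encodes a helicase-like protein with Tudor domains, and its protein is needed for PIWIL4 to be loaded with secondary piRNAs. Its CPM were 68.8, 101, 52.1 and 49.6 in d6PGCLCs and 59.5, 66.5, 67.6 and 68.9 in PGCs. The d6PGCLC libraries lay on both sides of the PGC libraries, with a coefficient of variation of 34.8% against 6.38%. No difference was detected, with a log2 fold change of 0.05 ± 0.16 (SE, edgeR adjusted p = 1) and a 95% interval from -0.29 to 0.38, and it was 0.09 without PGC replicates 2 and 4. The sign of this value turned without d6PGCLC replicate 2, the highest library, where it was -0.22 (edgeR adjusted p = 0.248).

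The members with a LOTUS domain, an RNA-binding fold beside the Tudor domains, are Tdrd5 and Tdrd7, both known from the chromatoid body of spermatids. Tdrd7 (chr4:45965027-46034766, plus strand, 17 exons) had 13.8, 13.1, 7.88 and 11.2 CPM in d6PGCLCs and 72.0, 34.9, 59.2 and 46.8 CPM in PGCs. The groups were apart, although PGC replicate 2 had less than the other 3 PGC libraries. Its log2 fold change was -2.22 ± 0.20 (SE, edgeR adjusted p = 1.56e-08), or 4.66-fold lower (95% interval 3.50 to 6.20). It was -2.52 without PGC replicates 2 and 4.

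Tdrd5 (chr1:156255296-156304304, minus strand, 18 exons) had 70.3, 79.4, 83.6 and 92.2 CPM in d6PGCLCs and 102, 79.3, 94.97 and 96.4 CPM in PGCs. PGC replicate 2 fell inside the range of the d6PGCLCs, so that the groups overlapped. The log2 fold change was -0.19 ± 0.11 (SE, edgeR adjusted p = 0.208; two-sided exact permutation test of the log2 CPM over 8 libraries, p = 0.171), with a 95% interval from -0.42 to 0.03. Without PGC replicates 2 and 4 it was -0.27 (edgeR adjusted p = 0.159). A drop as deep as that of Tdrd7 lay outside this interval. Exons of Tdrd5 overlap those of 4930518J20Rik on the other strand. That gene is not in the count table, so that its share of these counts is unknown.

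Tdrd6 (chr17:43615334-43631846, minus strand), which encodes a large protein with many Tudor domains that builds the chromatoid body in spermatocytes and spermatids, had 3 counts over all 8 libraries. They came 1 each from d6PGCLC replicate 4, PGC replicate 2 and PGC replicate 3, and the other 5 libraries had 0. A count of 0 allows up to 3 counts, which per length of this transcript corresponds to 0.0345 to 0.0518 RPKM (reads scaled to transcript length and library size) depending on the library, counting error only. Both groups were at this limit, and no fold change is given.

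The broadly expressed members behaved unlike each other. Tdrd3 (chr14:87416178-87545508, plus strand, 12 exons), whose protein reads asymmetrically dimethylated arginine on histones and partners topoisomerase TOP3B, had 31.7, 35.7, 30.1 and 29.9 CPM in d6PGCLCs and 78.8, 68.0, 79.7 and 75.7 CPM in PGCs. The libraries of each group were tightly grouped and far from the other group. This gave a log2 fold change of -1.25 ± 0.11 (SE, edgeR adjusted p = 1.25e-08), or 2.37-fold lower (95% interval 2.02 to 2.78), and -1.31 without PGC replicates 2 and 4.

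Snd1 (chr6:28480337-28935162, plus strand, 17 exons), which encodes a protein of staphylococcal nuclease-like domains and a Tudor domain known as a part of the RNA-induced silencing complex, had 595, 528, 551 and 562 CPM in d6PGCLCs. In PGCs it had 554, 489, 544 and 545 CPM, and the groups overlapped. The log2 fold change was 0.07 ± 0.08 (SE, edgeR adjusted p = 0.671; two-sided exact permutation p = 0.343), with a 95% interval from -0.10 to 0.24, and 0.02 without PGC replicates 2 and 4. The genes with the profiles most like that of Snd1 over the 8 libraries, of 8128 genes averaging 100 counts or more, included Caprin1, Nup214, Sec31a and Norad (Euclidean distance 0.0747 to 0.0934 in centred log2(CPM + 1)). For Tdrd1 they were Met, Tcfl5, Adgra3, Rbm44 and Mov10l1, at wider distances of 0.464 to 0.738, the last being a helicase gene of the piRNA pathway.

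Levels of different genes were set side by side only per length, as RPKM over the counted exons. In PGCs the order of the means was Snd1 (121 ± 4.04 RPKM, SD, n = 4), Stk31 (66.3 ± 8.52), Tdrd12 (31.6 ± 2.18), Tdrkh (30.1 ± 1.71), Tdrd5 (26.3 ± 2.20), Tdrd7 (12.4 ± 3.57), Tdrd3 (12.2 ± 0.636), Tdrd1 (3.70 ± 1.10) and Tdrd9 (1.81 ± 0.385). Among neighbours in this order, Tdrd12 and Tdrkh, Tdrkh and Tdrd5, and Tdrd7 and Tdrd3 overlapped in their ranges over libraries, and the others did not. In d6PGCLCs the order was Snd1 (124 ± 5.81 RPKM), Tdrd12 (31.8 ± 10.8), Tdrd5 (22.5 ± 2.77), Tdrkh (12.9 ± 1.48), Stk31 (10.9 ± 3.36), Tdrd3 (5.04 ± 0.385), Tdrd7 (2.61 ± 0.573), Tdrd1 (0.554 ± 0.322) and Tdrd9 (0.176 ± 0.0492). Here Tdrd12 and Tdrd5, Tdrkh and Stk31, and Tdrd1 and Tdrd9 overlapped. Stk31 thus ranked 2 in PGCs and 5 in d6PGCLCs. The counted length was 1608 bp for Stk31, 2101 bp for Tdrd12 and 3170 bp for Tdrkh, or 49.7%, 57.5% and 55.7% of their longest GENCODE transcripts. A level per length of these 3 genes therefore depends on which isoform was counted. Their fold changes compare the same exons, but whether isoform use differed between the groups was not tested.

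**Figure D2:**
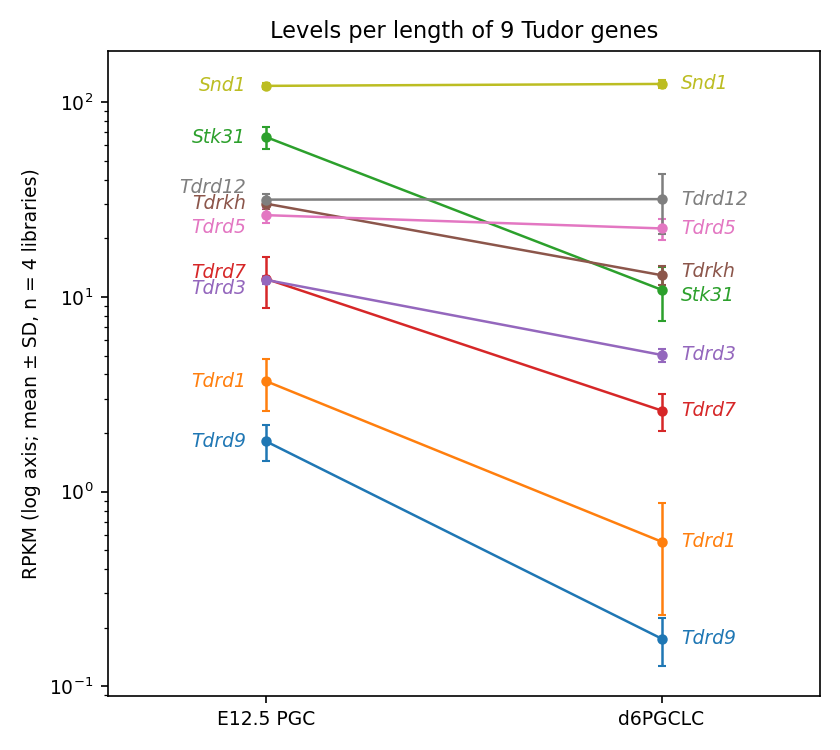
Mean RPKM (log axis) of 9 Tudor genes in E12.5 PGCs and d6PGCLCs, with SD over 4 libraries, Tdrd6 being left out because it was at the limit of detection. The lines of Snd1, Tdrd12 and Tdrd5 stay nearly level, and that of Stk31 crosses those of Tdrd12, Tdrd5 and Tdrkh.

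Summed over the 10 genes, Tudor transcripts amounted to 306 ± 19.8 RPKM in PGCs and 211 ± 11.4 RPKM in d6PGCLCs (SD, n = 4), with libraries from 278 to 324 RPKM and from 198 to 224 RPKM. Snd1 made up 39.7% ± 1.32 of this sum in PGCs and 59.1% ± 4.91 in d6PGCLCs. The genes past the fold threshold, Tdrd1, Tdrd7, Tdrd9 and Stk31, together made up 27.4% ± 2.69 and 6.69% ± 1.604. With Snd1 set aside, the share of Tdrd5 and Tdrd12 was 31.6% ± 2.57 of the rest in PGCs and 62.8% ± 2.47 in d6PGCLCs, and that of Stk31 was 35.8% ± 1.65 and 12.4% ± 1.99. None of these shares overlapped between the groups. They restate the fold changes of the members as proportions.

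**Figure D3:**
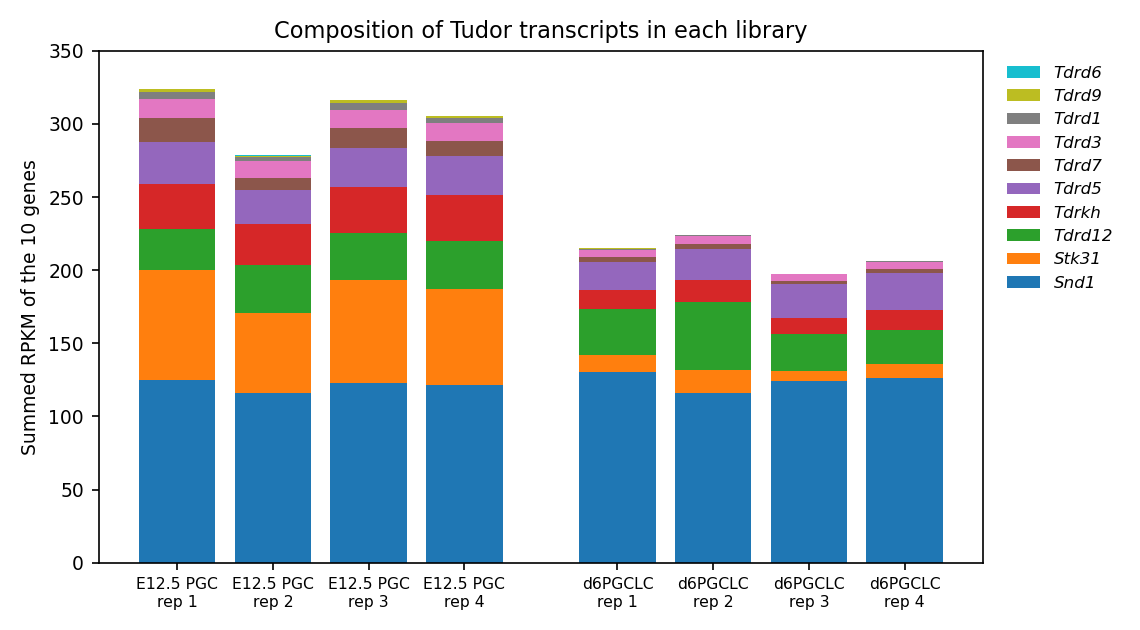
Summed RPKM of the 10 Tudor genes in each of 8 libraries, stacked by gene. The 4 PGC libraries sum to 278 to 324 RPKM and the 4 d6PGCLC libraries to 198 to 224 RPKM, with the orange Stk31 segment much narrower in d6PGCLCs and the blue Snd1 segment of like height in all.

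To set members beside each other, and not only the groups, their log2 ratios were taken within each library. The ratio of Tdrd5 to Tdrd7 was 2.59, 2.83, 3.61 and 3.28 in d6PGCLCs and 0.78, 1.45, 0.95 and 1.31 in PGCs, a difference of 1.96 ± 0.28 (SE). The ratio of Tdrd9 to Tdrd12 was -7.09, -7.13, -6.73 and -6.31 in d6PGCLCs and -3.83, -4.55, -3.78 and -4.12 in PGCs, a difference of -2.74 ± 0.26 that shrank to -1.21 with a pseudocount of 1 RPKM in place of 0.1, since Tdrd9 had 0.176 RPKM in d6PGCLCs. These pairs share a domain make-up, and in both of them 1 member was lower in d6PGCLCs relative to the other in all 4 libraries. The ratio of Tdrd3 to Snd1 differed by -1.30 ± 0.08, from -4.69, -4.35, -4.65 and -4.69 in d6PGCLCs to -3.29, -3.33, -3.25 and -3.33 in PGCs. For each of these 3 ratios the groups did not overlap and the two-sided exact permutation p was 0.0286 (n = 4 per group), the smallest that the design allows, over 14 ratios computed. Each of the 3 sets a member already called lower beside one that did not pass. They therefore restate the fold changes, and their p-values are no separate evidence.

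**Figure D4:**
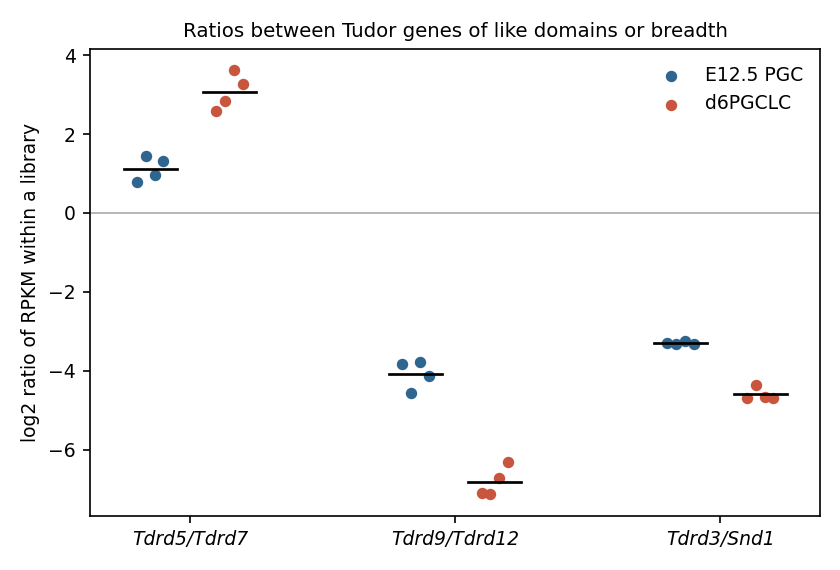
Log2 ratio of RPKM (pseudocount 0.1) of Tdrd5 to Tdrd7, Tdrd9 to Tdrd12 and Tdrd3 to Snd1 in each library, with a black bar at the group mean of 4. The d6PGCLC points lie above the PGC points for the first pair and below them for the others, with no overlap.

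Ddx4, the helicase that marks the granules, served as a common reference. It had 38.2, 42.8, 27.2 and 33.9 CPM in d6PGCLCs and 798, 626, 836 and 782 CPM in PGCs, a log2 fold change of -4.42 ± 0.12 (SE, edgeR adjusted p = 1.29e-15), or -4.53 without PGC replicates 2 and 4. Every member with more than 3 counts in a library therefore stood higher relative to Ddx4 in d6PGCLCs than in PGCs, including those that were lower themselves. The difference of the log2 ratio was 1.81 ± 0.11 (SE) for Stk31, 2.27 ± 0.17 for Tdrd7, 1.82 ± 0.31 for Tdrd1 and 1.66 ± 0.13 for Tdrd9. The last 2 depended on the pseudocount, being 2.74 and 3.08 with a pseudocount of 1 RPKM, so that the order among these 4 genes is not read. It was 3.19 ± 0.11 for Tdrd3 and 3.23 ± 0.07 for Tdrkh, and 4.22 ± 0.19, 4.41 ± 0.18 and 4.48 ± 0.16 for Tdrd5, Tdrd12 and Snd1. The direction of these 9 ratios follows from the larger drop of Ddx4, and most genes would show it, so that it is no result about the Tudor genes and is given without a test. The remaining 2 of the 14 ratios involve Tdrd6 and rest on the pseudocount, so that they are not read.

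The direct partners of Tudor proteins, the PIWI proteins and their piRNA co-factors, were next compared with the members. Ddx4, the reference above, is on this list and is counted again among its lower genes past the fold threshold. Of 17 genes on this list 15 were in the table, of which 13 were lower (11 past the fold threshold) and 0 higher, beside 15.4% of all genes lower and 3.37% past the fold threshold, with a median log2 fold change of -2.38. The median of the 9 Tudor genes, -1.25, lay between this and the -0.01 of the 14216 genes at large. The PIWI genes themselves were among the lower ones, Piwil2, the partner of TDRD1, by -2.17 ± 0.15 (SE, edgeR adjusted p = 6.03e-10), Piwil4, the partner of TDRD9, by -2.89 ± 0.60 (adjusted p = 1.73e-04), and Piwil1 by -2.58 ± 0.53 (adjusted p = 1.69e-04). Piwil4 and Piwil1 averaged only 0.317 ± 0.305 and 0.297 ± 0.162 CPM (SD) in d6PGCLCs, close to the level of 3 counts, so that the sizes of these folds are poorly fixed. Pnldc1, the trimmer that works with TDRKH, changed less, by -0.98 ± 0.12 (adjusted p = 6.78e-07). Exd1, the partner of TDRD12, had a log2 fold change of -0.38 ± 0.19 (adjusted p = 0.143), and Henmt1, which methylates piRNA 3′ ends, had -1.46 ± 0.61 (adjusted p = 0.0584). These were the 2 that did not pass. Henmt1 averaged only 0.317 CPM in d6PGCLCs and 0.929 CPM in PGCs, also near the level of 3 counts, and its groups did not overlap. The lower genes of the list numbered 14 with the likelihood ratio test, with the length offset (alone or with the replicate block) and without PGC replicate 1. Members of this list were known to differ in these libraries when it was drawn up.

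The enzymes that make the ligand of extended Tudor domains were also compared. Of 6 genes for symmetric and asymmetric arginine dimethylation, 2 were lower, Coprs (-0.66 ± 0.11, edgeR adjusted p = 8.26e-05) and Clns1a (-0.28 ± 0.10, adjusted p = 0.0426), 0 were higher, and the median was -0.16 (15.4% of all genes were lower). Both encode adaptors of PRMT5. Prmt5 itself, the methyltransferase, had a log2 fold change of -0.16 ± 0.08 (adjusted p = 0.153), and its cofactor Wdr77 had -0.04 ± 0.09 (adjusted p = 0.938). Although Prmt5 did not pass, each of its d6PGCLC libraries lay below every PGC library, whereas the groups of Clns1a overlapped. The call of Clns1a was lost when any of 6 of the 8 libraries was left out, and was lost without PGC replicates 2 and 4 (adjusted p = 0.268).

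Other genes of the Tudor family were set beside the members. Among 4 measured genes of the cytoplasm or germ line, 3 were lower and 0 higher, with a median of -0.57. They were Rnf17 (-1.24 ± 0.15, edgeR adjusted p = 8.06e-07), a testis-type Tudor scaffold, Smndc1 (-0.63 ± 0.09, adjusted p = 6.97e-06), a splicing factor, and Akap1 (-0.51 ± 0.08, adjusted p = 4.08e-05), a mitochondrial anchor protein. Smn1, the survival of motor neuron gene, had 0.02 ± 0.12 (adjusted p = 1). Among 13 measured Tudor readers of chromatin, 2 were lower, 4 were higher and the median was 0.13, beside 15.4% of all genes lower and 16.1% higher. Setdb1, a histone H3K9 methyltransferase, and Phf20l1 were lower, by -0.78 ± 0.10 (adjusted p = 3.20e-06) and -0.69 ± 0.14 (adjusted p = 4.97e-04). The histone demethylases Kdm4b (1.09 ± 0.13, adjusted p = 7.73e-07), Kdm4c (0.86 ± 0.16, adjusted p = 1.42e-04) and Kdm4a (0.48 ± 0.09, adjusted p = 2.29e-04) were higher, as was the Polycomb protein gene Mtf2 (0.49 ± 0.08, adjusted p = 4.37e-05).

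**Figure D5:**
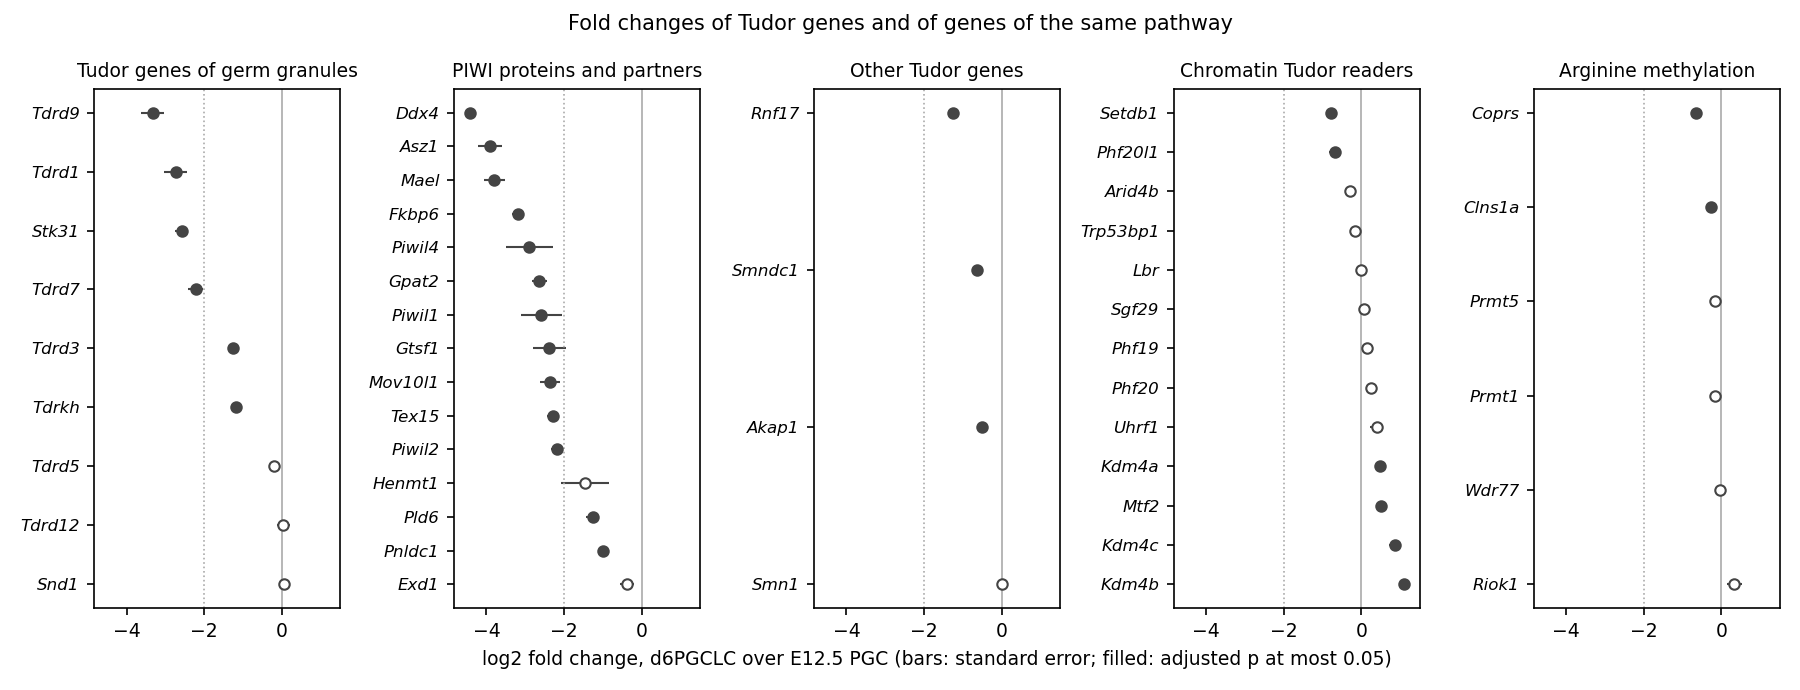
Log2 fold change (d6PGCLC over E12.5 PGC, bars for SE) of 9 Tudor genes, 15 PIWI and piRNA partners, 4 other Tudor genes, 13 chromatin Tudor readers and 6 arginine methylation genes, filled where edgeR's adjusted p was at most 0.05 and with a dotted line at -2. The partners lie farthest to the left (median -2.38), the Tudor genes are spread from -3.32 to 0.07, and the chromatin readers lie around 0.

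Partners of the broadly expressed members and a list of repressors came last, beside 15.4% of all genes lower and 16.1% higher. Of 6 measured genes, Fmr1 (-0.66 ± 0.10, edgeR adjusted p = 2.31e-05), the fragile X gene, and G3bp2 (-0.46 ± 0.12, adjusted p = 4.88e-03), a stress granule gene, were lower. Fxr2, a paralog of Fmr1, was higher by 0.28 ± 0.09 (adjusted p = 0.0232), a call lost without PGC replicates 2 and 4 (adjusted p = 0.0526) and without any of 3 single libraries. The median of the 6 was -0.07. Of 12 repressors known from germline promoters, 4 were lower, Dnmt3a (-1.06 ± 0.13, adjusted p = 1.67e-06), Wdr5, Tfdp1 and Rnf2, and 3 were higher, Dnmt3b (0.94 ± 0.20, adjusted p = 8.79e-04), Max (0.53 ± 0.08, adjusted p = 3.21e-05) and Pcgf6 (0.24 ± 0.09, adjusted p = 0.0392), with a median of -0.08. The call of Pcgf6 was lost on omission of any of 7 of the 8 libraries and that of Rnf2 on omission of PGC replicate 1 or 3. Scaling by library size (edgeR adjusted p = 0.0715) or by upper quartile (0.0843) also lost the call of Pcgf6. So did the length offset, alone (0.180) or with the replicate block (0.238). Max encodes the partner of MGA at E-boxes, and Mga had a log2 fold change of -0.43 ± 0.17 (adjusted p = 0.0574).

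The offsets of single libraries were also counted. PGC replicate 2, the library with the heat-shock and blood transcripts, was the lowest PGC library for 8 of the 9 members with more than 3 counts, Tdrd12 being the exception. Among d6PGCLCs, replicate 3 was the lowest for 5 of the same 9 members, and for Tdrd9 it was nearly level with replicate 1 (0.747 and 0.766 CPM). The same counts were not made over all genes, so that they are not read as a trait of the Tudor genes. The part of the cells' handling in these offsets was not tested. Without PGC replicates 2 and 4 the 6 lower members lay between -3.53 and -1.23, as against -3.32 and -1.19 with all libraries.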

How the data were processed

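RNA of d6PGCLCs (4 pools) and E12.5 female PGCs (4 pools) was sequenced single-end at 100 bp after poly(A) selection with a stranded kit. The deposited values are the authors' raw counts per gene of reads with a single mapping position, made with STAR on GRCm38 and counted on the exons of a single isoform per gene, together with the exonic length of that isoform in bp, the other value used here. Whether the counting used strand is not given in the sources used here. Counting single positions leaves out sequence shared with paralogs.

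The 21950 gene identifiers were matched to RefSeq (GRCm38.p6), which named 21907 of them. No library was dropped and no value imputed. After TMM scaling, all genes entered the quasi-likelihood fit and F-test of edgeR 4.0.16 (prior count 0.125, no filter on low counts) in R 4.3.3 with cell type as the only term, and p-values were adjusted by Benjamini-Hochberg over all genes. Calls were made at an adjusted p of at most 0.05, and separately with the added demand that the log2 fold change be 2 or more in size. Intervals are 95% from the moderated t distribution of the fit. RPKM used the counts, the deposited exonic length and the library total. Ratios used a pseudocount of 0.1 RPKM and a two-sided exact permutation test of the 8 libraries. Genes that never exceeded 3 counts in a group were treated as undetectable in it. Transcript numbers are from GENCODE M21.

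The members, the lists and the tests were chosen with earlier results of these data known. The genes named are the 10 members, Ddx4, those list genes with the largest and smallest called change or that go against their list, some further list genes picked for their link to a member, and the 5 nearest profiles of Tdrd1 and of Snd1, of which 1 for Snd1 is not reported here. As alternatives, DESeq2 1.42.0, the likelihood ratio test, other scalings (library size, DESeq2 size factors, upper quartile), filterByExpr or a minimum of 1 CPM in 3 samples, a replicate block, a prior count of 2, a loess offset on exonic length (span 0.5), a pseudocount of 1 for the ratios and the omission of each library were run. Leaving out PGC replicates 2 and 4 together was added after the data had been seen.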

Additional observations from a re-analysis of the deposited data

Results flagged for a closer look

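Among the 20 sets of 4 libraries tested (CPM of the 9 members above the limit of detection and of Ddx4 in each group), 1 held a library far from the other 3 by Dixon's criterion. Snd1 had 489.4 CPM in PGC replicate 2, against 544 to 554 CPM in PGC replicates 1, 3 and 4. About 1 such set in 20 is found by chance. PGC replicate 2 is also the library with 152 CPM of Hspa1a. Without it and PGC replicate 4 the log2 fold change of Snd1 was 0.02 (edgeR adjusted p = 1), as against 0.07 (adjusted p = 0.671) with all libraries.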

How the results depend on the processing

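The 6 lower members and the 4 past the fold threshold were counted under each of the alternative fits, which covered the test, the scaling, the filter, the prior count, the block and the omission of each library. Other scalings shifted the log2 fold changes of genes above a minimum mean count by a median of at most 0.04 in size. The sign of Tdrd12, which was 0.05 and not called, turned with the replicate block (-0.0070, edgeR adjusted p = 1), with the length offset (-0.040), with both together (-0.093) and without d6PGCLC replicate 2 (-0.22), its values without 1 library running from -0.22 to 0.17. The number of higher genes among the partners of Tdrd3 and Snd1, 1 with all libraries, was 0 with upper quartile scaling and without PGC replicates 2 and 4, 2 with the length offset, 2 with the replicate block and length offset, and 0 to 1 without single libraries. The number of lower genes for arginine methylation, 2 with all libraries, was 3 with DESeq2, with filterByExpr and with the length offset, 1 to 2 without single libraries and 1 without PGC replicates 2 and 4. The cause was not tested. Whether the replicate numbers pair the samples could not be decided. The correlations of same-numbered libraries were 0.28, 0.11, -0.02 and 0.04, and those of differently numbered libraries ran from -0.18 to 0.12. The highest of all was that of the 2 libraries numbered 1. With the replicate block there were still 6 lower members and 4 past the fold threshold. The 12 ratios without Tdrd6 kept their sign without each single library and with a pseudocount of 1, although that pseudocount moved Tdrd9 to Tdrd12 from -2.74 to -1.21, Tdrd9 to Ddx4 from 1.66 to 3.08 and Tdrd1 to Ddx4 from 1.82 to 2.74. Sign flips over 4 pairs cannot reach 0.05, so that the paired ratios are values with no test. Counts were fewest for Tdrd9 in d6PGCLCs, at 6 to 13, among the members with a fold change.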
